A study of Homo sapiens with 8 samples.

Results

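The genes described here encode the STAT transcription factors STAT2, STAT3, STAT4, STAT5A, STAT5B and STAT6. They were selected by gene symbol and made up 6 of the 60558 genes listed for each library, and all 6 passed the filter on low values. RNA-seq was done on 2D human intestinal epithelial cells (hIECs) differentiated from H9, a human embryonic stem cell line. The 8 libraries formed 4 groups of 2. Untreated cells are called normal hIECs, and those given only particulate matter are normal hIECs with PM10. Cells given only cytokines are inflamed hIECs, and those given both are inflamed hIECs with PM10. Inflamed hIECs received IFNγ and TNFα, each at 50 ng/ml, for 10 days. PM10, particulate matter of the coarse size class, was given at 100 μg/ml over the last 7 days. All cells came from 1 stem cell line, and the labels do not state whether the libraries of a group came from separate cultures, so p-values measure only the spread between these libraries, which may be technical.

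STAT proteins are latent transcription factors. Cytokine and interferon receptors, through the associated JAK kinases, phosphorylate them on tyrosine, after which they form dimers, enter the nucleus and bind short inverted repeats in DNA. STAT2 pairs with another STAT and with IRF9 in the complex ISGF3, which binds a different, GAAA-based element in interferon-stimulated genes. STAT3 is the main mediator of IL-6 family cytokines and of epithelial repair, STAT4 of IL-12, STAT5A and STAT5B of growth hormone, prolactin and IL-2 family cytokines, and STAT6 of IL-4 and IL-13. RNA-seq measures their transcripts and not their phosphorylation.

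The genes lay in 3 places of the genome (GRCh38, GENCODE release 44). STAT2 (ENSG00000170581, chromosome 12, 56341597 to 56360203, minus strand) and STAT6 (ENSG00000166888, chromosome 12, 57095408 to 57132139, minus strand) were separated by 735204 bases. STAT5B (ENSG00000173757, chromosome 17, 42199176 to 42288633, minus strand), STAT5A (ENSG00000126561, chromosome 17, 42287547 to 42311943, plus strand) and STAT3 (ENSG00000168610, chromosome 17, 42313324 to 42388540, minus strand) stood side by side. STAT4 (ENSG00000138378) covered 191029576 to 191151596 of chromosome 2 on the minus strand.

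Features of these loci bear on how their reads were assigned, since the libraries held no strand information. Exons of STAT5A and STAT5B, on opposite strands, shared 415 bases, and 371 of the 100-base stretches of STAT5A transcripts (5.26%) also occurred in STAT5B transcripts, where they made up 2.73%. Their separate levels are therefore uncertain to that extent. Other pairs of the 6 genes shared none. STAT6 exons overlapped those of NAB2 by 69 bases and of LRP1 by 59 bases, and these neighbors stood at 14.6 to 37.2 FPKM and 17.9 to 24.1 FPKM. STAT4 exons overlapped STAT4-AS1, which was at most 0.225 FPKM, and ENSG00000288064, which was listed at 0 in every library.

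Sequence upstream of the start sites was read for the elements that STAT proteins bind, on both strands of the 250 bases before each RefSeq start site (GRCh38.p14). Each of the 6 genes had at least 1 such window, and together they had 9. The palindrome TTCNNGAA was in 3 of the 9 windows and in 6.62% of 35116 windows of all genes, TTCNNNGAA in 0 of 9 (6.57%), TTCNNNNGAA in 1 of 9 (5.38%), and the interferon-type element GAAANNGAAA in 0 of 9 (3.02%). The 4 matches are printed in capitals within their surroundings, 5′ to 3′ on the gene's strand, because they are the STAT-type letters in front of the STAT genes themselves. They began 50 (STAT4, the more upstream start), 153 (STAT4, the more downstream start), 229 (STAT5A) and 131 (STAT3) bases before the start site.
STAT4, chr2:191151609-191151676, minus strand: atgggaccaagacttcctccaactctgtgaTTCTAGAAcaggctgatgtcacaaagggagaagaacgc
STAT4, chr2:191151110-191151177, minus strand: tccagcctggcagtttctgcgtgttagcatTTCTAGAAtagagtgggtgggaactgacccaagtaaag
STAT5A, chr17:42287189-42287249, plus strand: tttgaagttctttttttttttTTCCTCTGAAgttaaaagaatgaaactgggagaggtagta
STAT3, chr17:42388536-42388603, minus strand: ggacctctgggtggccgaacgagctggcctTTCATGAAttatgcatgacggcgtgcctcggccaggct
Both STAT4 windows held the same 8 letters. A match is a description of the letters and not of binding, and the windows of STAT2, STAT5B and STAT6 held none of the 4 elements.

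The libraries were compared by their deposited FPKM (fragments scaled to transcript length and to the mapped total of the library), whose sums ranged from 403354 to 468392 per library. Read counts were not used here, so the depth is unknown. Between 16547 and 18926 genes were above 0, and the lowest value above 0 was 0.164 to 0.228 FPKM. Transcripts of mitochondrial DNA took 15.5% to 24.2% of the sum, with the highest share in normal hIECs replicate 2 and 17.02% in normal hIECs replicate 1. Defining markers of intestinal epithelium were absent or nearly so in every library. CDX2, VIL1 and MUC2 were listed at 0, CDH1 was at most 0.221 FPKM and EPCAM at most 0.622 FPKM, although the epithelial keratins KRT8 and KRT18 stood at 100.1 to 383 FPKM. Of 18 immune cell markers, 12 were at 0 in all libraries, CD3D among them, and PTPRC was at most 0.524 FPKM. The 10 mesenchymal markers summed to 3726 to 4475 FPKM, and their sum was lower with PM10, at 3726 to 3735 against 4208 to 4248 FPKM in normal hIECs and at 3750 to 3783 against 4428 to 4475 FPKM in inflamed hIECs. Of these 10 genes, PM10 called 1 higher and 2 lower in normal hIECs and 1 higher and 6 lower in inflamed hIECs. Among all genes tested, PM10 called 5.51% higher and 3.72% lower in normal hIECs. In inflamed hIECs PM10 called 6.22% of all genes tested higher and 9.02% lower. From normal to inflamed hIECs the summed intestinal epithelial markers went from 659 to 666 down to 356 to 361 FPKM. That sum was mostly KRT8 and KRT18. Of the 5 epithelial markers tested 80.0% were called, against 56.2% of all genes tested. KRT8, KRT18 and SOX9 fell and KLF5 did not pass. LGR5, a stem cell marker, rose from 2.01 to 2.63 up to 5.26 to 5.68 FPKM (0.97, limma adjusted p = 0.00013). The neuronal markers went from 198 to 207 down to 118 FPKM, most of it STMN2, which fell from 114 to 122 down to 52.5 to 53.8 FPKM. SYP in that list rose (0.42, limma adjusted p = 0.00229) and MAP2 stood at 0.03 (limma adjusted p = 0.882). The sum of the immune cell markers went from 59.9 to 63.8 down to 35.2 to 37.6 FPKM. It was nearly all NCAM1, at 58.3 to 62.0 and 34.8 to 37.3 FPKM, so it follows that gene and not leukocyte markers as a set. The cytokine and PM10 shifts of these markers accompany the comparisons below, and their part in the STAT values was not tested. In bulk RNA, fewer cells of a type and less RNA per cell cannot be told apart.

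FPKM is scaled by transcript length, so the 6 genes can be set against each other. In normal hIECs STAT3 was the most abundant at 40.2 ± 1.80 FPKM (mean ± SD, n = 2), followed by STAT6 at 29.0 ± 0.675 and STAT2 at 25.5 ± 2.99. STAT5B (7.27 ± 0.919), STAT4 (2.19 ± 0.127) and STAT5A (1.04 ± 0.618) came after them. No neighbors in this order overlapped between libraries, and the order was the same in normal hIECs with PM10. STAT2 stood first in the cells given cytokines, at 41.3 ± 0.961 FPKM without PM10 and 38.0 ± 0.165 FPKM with it. STAT3 and then STAT6 followed there. STAT5B and STAT4 overlapped only in inflamed hIECs with PM10, where they averaged 6.32 and 5.98 FPKM.

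**Figure D1:**
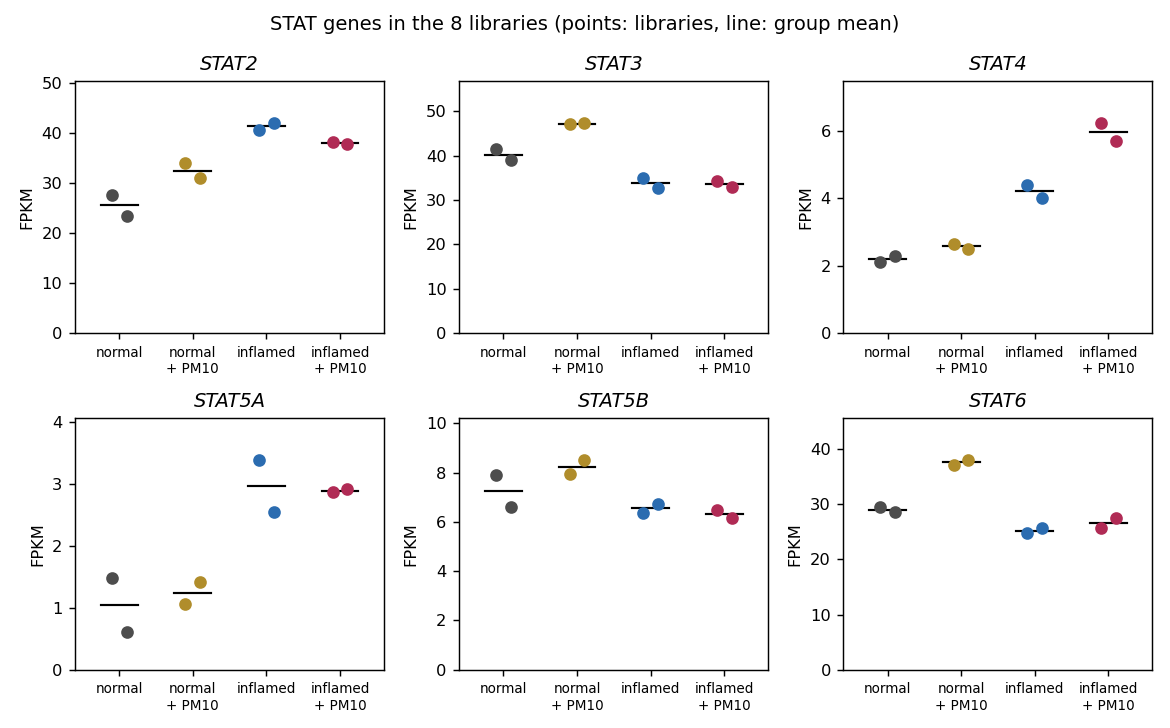
FPKM of each STAT gene (vertical axes, starting at 0) in the 8 libraries by group (horizontal axes). Points are libraries and lines are group means; STAT2, STAT4 and STAT5A stood higher in both inflamed groups than in both normal groups, while STAT3 and STAT6 stood lower there.

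The first question was how the cytokines altered STAT transcripts without PM10. STAT2, STAT4 and STAT5A were higher in inflamed than in normal hIECs, STAT3 and STAT6 were lower, and STAT5B did not pass the test. That is 5 of 6 genes called, where 56.2% of the 14206 genes tested were called (25.9% higher and 30.3% lower). Every test below is limma on log2(FPKM + 1) with Benjamini-Hochberg adjustment over all genes tested, called at an adjusted p under 0.05, and differences are given on that log2 scale with their SE.

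STAT2, the interferon-specific member, stood at 27.6 and 23.4 FPKM in normal hIECs and at 40.6 and 42.0 FPKM in inflamed hIECs. Both inflamed libraries were above both normal libraries. The ratio of the mean FPKM was 1.62 and the log2 difference 0.68 (SE 0.0819, limma adjusted p = 0.000333).

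STAT4, best known from lymphoid and myeloid cells, stood at 2.10 and 2.28 FPKM in normal hIECs and at 4.41 and 4.02 FPKM in inflamed hIECs. The groups did not overlap and the ratio of the mean FPKM was 1.92, with a log2 difference of 0.71 (SE 0.0784, limma adjusted p = 0.000215). The T cell and macrophage markers CD3D, CD3E, CD2, CD14 and CSF1R were listed at 0 in all 8 libraries, and PTPRC, the pan-leukocyte marker, was listed at 0 in every inflamed library. CD68, which marks macrophages but also lysosomes of other cells, was at 0.503 to 0.510 FPKM in normal hIECs and 0.333 to 0.399 FPKM in inflamed hIECs. NCAM1, also in the immune list, was at 58.3 to 62.0 FPKM in normal hIECs and 34.8 to 37.3 FPKM in inflamed hIECs. KIT, CD79A and NKG7 were each at most 0.392 FPKM in any library. Which cells held the STAT4 transcripts was not tested.

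STAT5A and STAT5B, close paralogs with shared and separate targets, differed in their calls, though the difference between the genes was not itself tested. STAT5A was at 1.48 and 0.602 FPKM in normal hIECs and at 3.39 and 2.54 FPKM in inflamed hIECs. It was higher in both inflamed libraries, with a log2 difference of 0.98 (SE 0.205, limma adjusted p = 0.00497). Its normal libraries differed from each other by more than those of any other STAT gene in proportion, so the ratio of inflamed to normal FPKM ranged from 1.72 to 5.62 over the 4 pairs of libraries. STAT5B was at 7.92 and 6.62 FPKM in normal hIECs and at 6.36 and 6.75 FPKM in inflamed hIECs. These values overlapped, and the log2 difference was -0.13 (SE 0.0874, limma adjusted p = 0.255). Without normal replicate 2 it was -0.24 and passed (limma adjusted p = 0.0399). STAT5B made up 84.3% to 91.7% of the summed FPKM of the pair in normal hIECs and 65.3% to 72.7% in inflamed hIECs.

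STAT3 was at 41.5 and 39.0 FPKM in normal hIECs and at 35.0 and 32.7 FPKM in inflamed hIECs. Both inflamed libraries were lower, and the log2 difference was -0.24 (SE 0.056, limma adjusted p = 0.00786). Without inflamed replicate 2 it was -0.19 and did not pass (limma adjusted p = 0.058). STAT6 was at 29.5 and 28.6 FPKM in normal hIECs and at 24.7 and 25.7 FPKM in inflamed hIECs. It was lower in both inflamed libraries as well, with a log2 difference of -0.20 (SE 0.0545, limma adjusted p = 0.0171). Without inflamed replicate 1 the STAT6 difference was -0.17 and no longer passed (limma adjusted p = 0.0993). The fall of STAT3 and STAT6 was small beside the rise of STAT2, and the mean FPKM ratios of inflamed to normal were 0.841 for STAT3 and 0.868 for STAT6.

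With PM10 present in both arms, the cytokine comparison called all 6 genes, 3 higher and 3 lower, where 65.4% of all genes tested were called (25.8% higher and 39.6% lower). The median log2 difference of all genes was -0.109 here, so a fall of that size was typical of all genes. STAT4 was at 2.64 and 2.50 FPKM in normal hIECs with PM10 and at 6.24 and 5.71 FPKM in inflamed hIECs with PM10. Both inflamed libraries were above both others, with a log2 difference of 0.96 (SE 0.0784, limma adjusted p = 3.25e-05). STAT5A was at 1.07 and 1.42 against 2.86 and 2.91 FPKM, again without overlap. Its log2 difference was 0.80 (SE 0.205, limma adjusted p = 0.0107), and without normal hIECs with PM10 replicate 1 it was 0.68 and did not pass (limma adjusted p = 0.0631).

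STAT2 was at 33.9 and 31.0 FPKM in normal hIECs with PM10 and at 38.1 and 37.8 FPKM in inflamed hIECs with PM10. The groups stayed apart but closer than without PM10, with a log2 difference of 0.22 (SE 0.0819, limma adjusted p = 0.0447). This call held in 11 of 18 settings. It was lost without normal hIECs with PM10 replicate 2 (limma adjusted p = 0.221), and also without either library of inflamed hIECs or of inflamed hIECs with PM10.

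On the falling side, STAT3 was at 47.1 and 47.3 FPKM in normal hIECs with PM10 and at 34.2 and 33.0 FPKM in inflamed hIECs with PM10, with a log2 difference of -0.48 (SE 0.056, limma adjusted p = 0.000211). STAT6 went from 37.1 and 38.1 to 25.6 and 27.5 FPKM, with a log2 difference of -0.49 (SE 0.0545, limma adjusted p = 0.000171). Neither gene's groups overlapped. STAT5B, at 7.97 and 8.53 against 6.50 and 6.14 FPKM, fell by 0.34 on the log2 scale (SE 0.0874, limma adjusted p = 0.0111). The STAT5B call was lost without normal hIECs with PM10 replicate 2 (-0.29, limma adjusted p = 0.068) or inflamed hIECs with PM10 replicate 2 (-0.30, limma adjusted p = 0.0643).

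**Figure D2:**
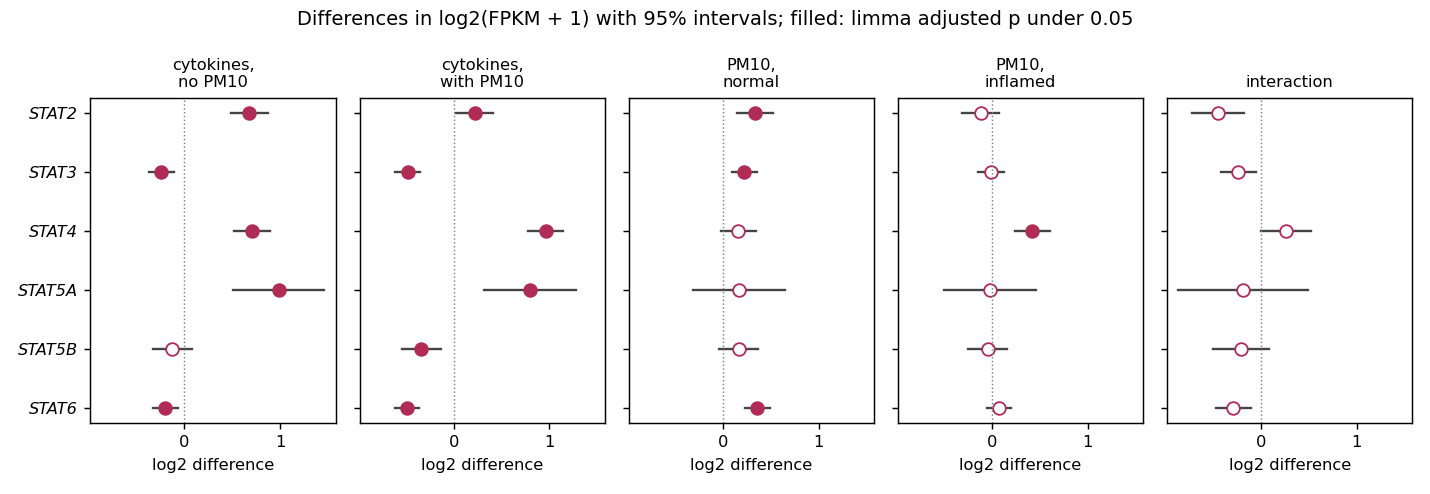
Differences in log2(FPKM + 1) of each STAT gene (horizontal axes) with 95% intervals (lines) in the 5 comparisons, with filled points for a limma adjusted p under 0.05. In the cytokine panels STAT2, STAT4 and STAT5A lay above 0 and STAT3 and STAT6 below it; the PM10 panels show 3 genes called in normal hIECs and STAT4 alone in inflamed hIECs.

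The next question was what PM10 did to the same transcripts in cells without cytokines. STAT2, STAT3 and STAT6 were higher in normal hIECs with PM10 than in normal hIECs, which is 3 of 6 genes called where 9.23% of all genes tested were called (5.51% higher and 3.72% lower). STAT6 had the firmest of these calls. It was at 29.5 and 28.6 FPKM without PM10 and at 37.1 and 38.1 FPKM with it, a mean FPKM ratio of 1.29. The groups did not overlap and the log2 difference was 0.36 (SE 0.0545, limma adjusted p = 0.0117). The call held in 15 of 18 settings, and the exceptions were a fit on these 2 groups alone and leaving out either library with PM10.

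STAT2 averaged 25.5 FPKM in normal hIECs and 32.4 FPKM with PM10, and STAT3 averaged 40.2 and 47.2 FPKM. The libraries did not overlap for either gene. Their log2 differences were 0.34 (SE 0.0819, limma adjusted p = 0.0468) for STAT2 and 0.23 (SE 0.056, limma adjusted p = 0.0487) for STAT3, close to the threshold. The median log2 difference of all genes was 0.0589 here. With libraries centred on their medians STAT3 was at 0.17 and did not pass (limma adjusted p = 0.0745). The STAT2 call held in 7 and the STAT3 call in 6 of 18 settings, with STAT2 at 0.22 (limma adjusted p = 0.112) and STAT3 at 0.18 (limma adjusted p = 0.129) when normal hIECs replicate 2 was left out. Leaving out any library other than normal hIECs replicate 1 ended both calls. The direction was upward for both genes in every setting.

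STAT4, STAT5A and STAT5B did not pass in this comparison, with log2 differences of 0.16 (SE 0.0784, limma adjusted p = 0.214), 0.17 (SE 0.205, limma adjusted p = 0.627) and 0.17 (SE 0.0874, limma adjusted p = 0.253). Their 95% intervals ran from -0.02 to 0.35, from -0.31 to 0.65 and from -0.04 to 0.37. STAT5A libraries of the 2 groups overlapped, while those of STAT4 and STAT5B did not.

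**Figure D3:**
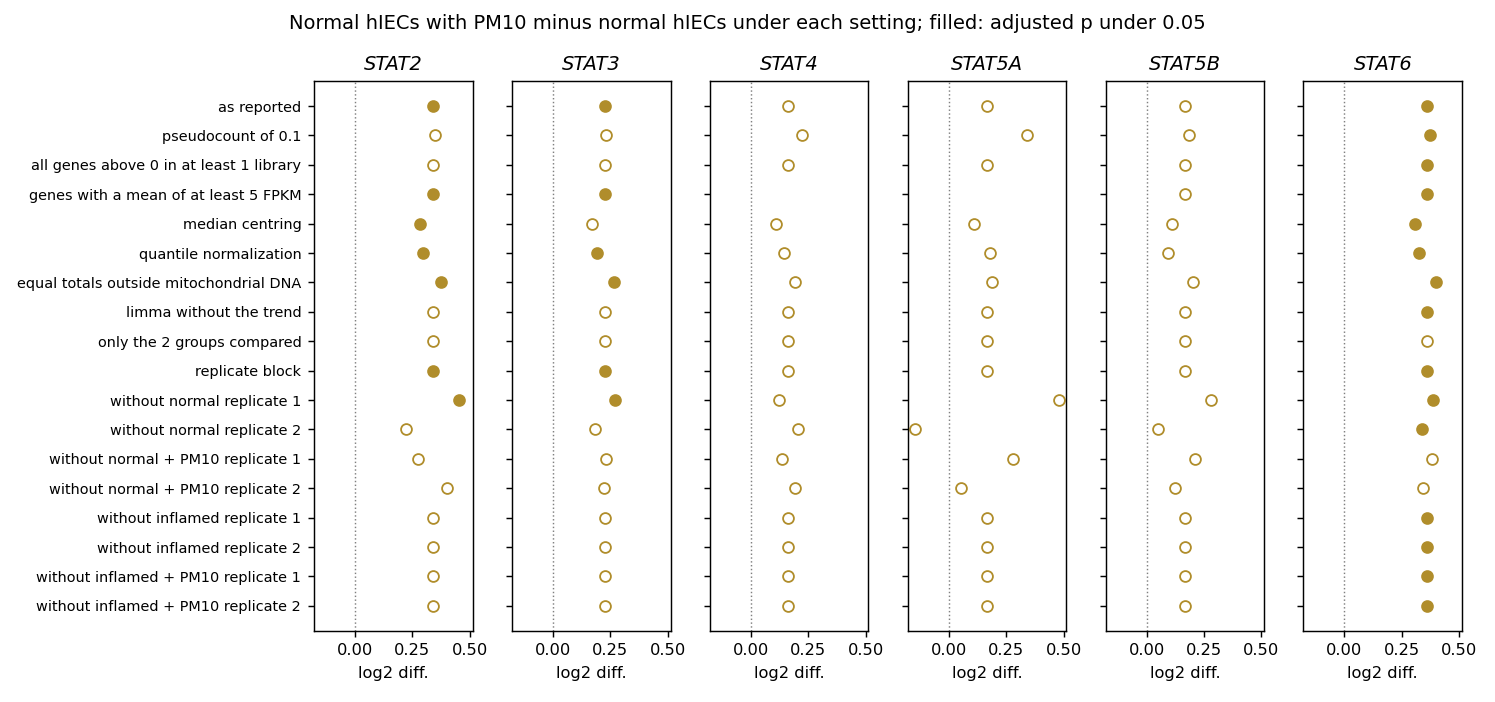
Log2 difference of each STAT gene (horizontal axes) of normal hIECs with PM10 minus normal hIECs without it, under the reported setting and each alternative (vertical axis), with filled points for a limma adjusted p under 0.05. STAT6 was called in 15 of 18 settings, STAT2 in 7 and STAT3 in 6, and STAT5A changed sign without normal replicate 2; STAT4 and STAT5A have no point under the filter at a mean of 5 FPKM.

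The PM10 comparison was also made in cells that received cytokines. STAT4 was the one STAT gene called when inflamed hIECs with PM10 were set against inflamed hIECs without it, where 15.2% of all genes tested were called (6.22% higher and 9.02% lower). It was at 4.41 and 4.02 FPKM in inflamed hIECs and at 6.24 and 5.71 FPKM with PM10. The groups did not overlap, the mean FPKM ratio was 1.42 and the log2 difference was 0.42 (SE 0.0784, limma adjusted p = 0.0143). The call held in 14 of 17 settings, with limma adjusted p = 0.0514 without inflamed replicate 1, 0.0928 without inflamed replicate 2 and 0.0937 without inflamed hIECs with PM10 replicate 1. CD68 was also higher in inflamed hIECs with PM10, at 1.11 to 1.83 against 0.333 to 0.399 FPKM (0.84, limma adjusted p = 0.021), and its part in the STAT4 difference was not tested. Across the 4 groups STAT4 therefore had its lowest mean in normal hIECs (2.19 FPKM) and its highest in inflamed hIECs with PM10 (5.98 FPKM). Its PM10 difference in normal hIECs was also upward, at 0.16. The test between the PM10 differences, given below, did not pass for STAT4 (0.26, limma adjusted p = 0.214).

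The other 5 genes did not pass in this comparison. STAT2 libraries with PM10 (38.1 and 37.8 FPKM) were both below those without it (40.6 and 42.0 FPKM), at a log2 difference of -0.12 (95% interval -0.31 to 0.07). STAT6 was at 0.07 (-0.06 to 0.20), STAT3 at -0.01 (-0.14 to 0.12), STAT5B at -0.05 (-0.25 to 0.16) and STAT5A at -0.02 (-0.50 to 0.46). For STAT3, STAT5A, STAT5B and STAT6 the libraries of the groups overlapped.

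Whether PM10 acted differently in normal and inflamed cells was tested by the interaction term, the PM10 difference in inflamed hIECs minus that in normal hIECs. With limma, 0 of the 6 STAT genes passed, where 6.6% of all genes tested did (2.11% higher and 4.48% lower). The lowest adjusted p-values among them were those of STAT2 at -0.46 (SE 0.116, limma adjusted p = 0.0624), STAT6 at -0.29 (SE 0.0771, limma adjusted p = 0.0714) and STAT3 at -0.24 (SE 0.0792, limma adjusted p = 0.128). The STAT2 interaction passed in 4 of 17 settings, with limma adjusted p from 0.0183 to 0.181 over all of them, the lowest without normal replicate 1. STAT4 had the only positive value, 0.26 (SE 0.111, limma adjusted p = 0.214). STAT5A (-0.19) and STAT5B (-0.21) had intervals that included 0.

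Shares of the summed FPKM of the 6 genes do not depend on how a library was scaled. STAT2 took 23.3% and 25.1% of the sum in normal hIECs and 24.0% and 26.1% with PM10. In inflamed hIECs it took 35.5% and 36.9%, and 33.5% and 33.6% when PM10 was added. The shares of STAT2 in the 4 libraries with cytokines were all above those in the 4 without, and those of STAT3 all below. STAT3 went from 37.7% and 38.8% in normal hIECs to 28.7% and 30.6% in inflamed hIECs. The ratio of STAT2 to STAT3 FPKM was 0.601 to 0.666 in normal hIECs, 0.654 to 0.720 with PM10, 1.16 to 1.29 after cytokines and 1.11 to 1.15 after both. The ratio ranges of normal hIECs with and without PM10 overlapped. The share of STAT4 was highest in inflamed hIECs with PM10, at 5.06% and 5.50%, against 3.53% and 3.85% in inflamed hIECs.

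**Figure D4:**
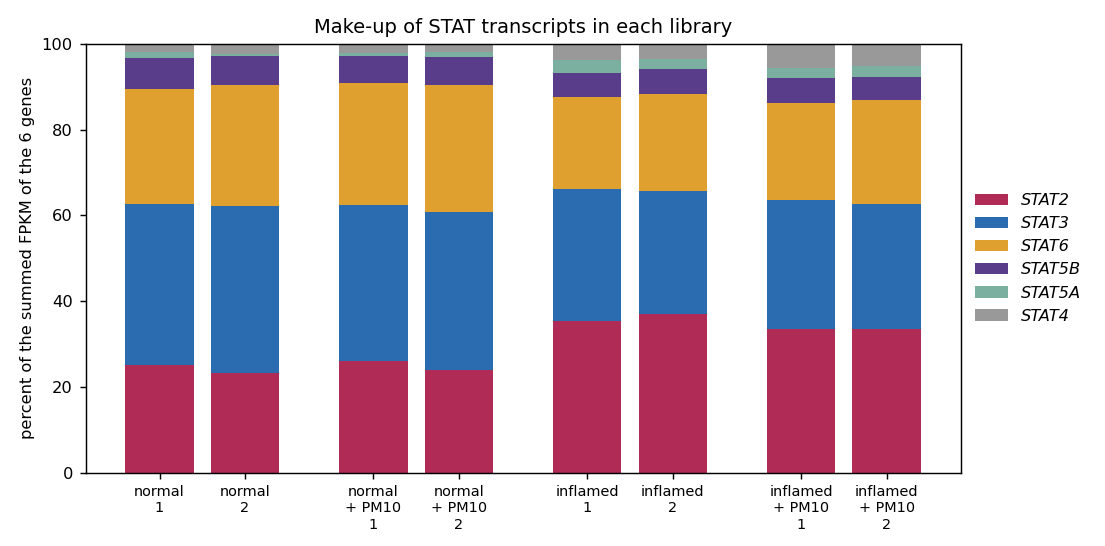
Share of each STAT gene in the summed FPKM of the 6 genes (vertical axis, percent) in each of the 8 libraries (bars). STAT2 took 23.3% to 26.1% in the libraries without cytokines and 33.5% to 36.9% in those with them.

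The pathway around the STAT genes was read through 7 lists written by hand (JAK kinases, receptors, negative regulators and 4 sets of target genes), 134 genes in all, of which 89 passed the filter. Between inflamed and normal hIECs 57 were higher and 16 lower (82.0% called, against 56.2% of all genes), with a median log2 difference of 0.61 against -0.03 for all genes tested. With PM10 in both arms 55 were higher and 22 lower (86.5% against 65.4%). Genes that passed the filter only through libraries with cytokines, such as IL15RA and OAS2, could only be found higher in these cytokine comparisons. PM10 called 12 higher and 6 lower in normal hIECs (20.2% against 9.23%), and 9 higher and 16 lower in inflamed hIECs (28.1% against 15.2%). In normal hIECs that count ranged from 1 to 28 when 1 library was left out, with 1 gene without normal hIECs with PM10 replicate 1, 2 without replicate 2 of that group and 28 without normal replicate 1, and it fell to 9 or 10 without any 1 inflamed library. In inflamed hIECs it was 12 to 15 without any 1 library of the groups compared.

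Of the JAK kinases, which couple receptors to STAT proteins, JAK2 rose in inflamed hIECs from 1.94 to 2.199 up to 3.97 to 4.05 FPKM (log2 difference 0.71, limma adjusted p = 0.000583). JAK3, the partner of the common gamma chain, fell from 6.01 to 6.05 down to 4.64 to 4.74 FPKM (-0.30, limma adjusted p = 0.0137), a call lost without inflamed replicate 1 (0.0665) or 2 (0.0506). JAK1 (22.9 to 28.4 FPKM over all libraries) and TYK2 did not pass there, with limma adjusted p of 0.568 and 0.055. Without normal replicate 2 JAK1 passed (-0.17, limma adjusted p = 0.0284), and without inflamed replicate 1 TYK2 did (0.26, limma adjusted p = 0.0277). TYK2, which serves the type I interferon receptor, was higher with PM10 in normal hIECs, at 19.9 to 21.2 against 16.4 to 16.8 FPKM (0.29, limma adjusted p = 0.0397).

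Cytokine receptors were represented by 20 of 40 genes, the others lying under the filter and 13 of them at 0 in every library. In inflamed hIECs 11 were higher and 3 lower, with a median of 0.45, which is 70.0% called against 56.2% of all genes (25.9% higher and 30.3% lower). IL15RA, the IL-15 receptor chain, was listed at 0 in all 4 libraries without cytokines and stood at 17.9 to 19.7 FPKM in all 4 with them. IL12RB1, a subunit of the receptor upstream of STAT4, was likewise listed at 0 without cytokines and at 1.22 to 1.57 FPKM with them. IL12RB2, the other chain of that receptor, and IL2RG, the common gamma chain that IL-7, IL-15 and JAK3 work through, were listed at 0 in all 8 libraries. IL4R, upstream of STAT6, went from 4.55 to 5.28 up to 9.04 to 9.72 FPKM (0.81, limma adjusted p = 0.000192), in the opposite direction to STAT6 itself. IL7R, upstream of STAT5, rose by 0.83 (limma adjusted p = 3.91e-05) and CNTFR, a receptor chain of the IL-6 family, fell from 14.2 to 15.5 down to 0.983 to 0.988 FPKM.

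Negative regulators had 7 genes higher and 4 lower of 16 tested in inflamed hIECs, or 68.8% called against 56.2% of all genes (25.9% higher and 30.3% lower). USP18, which restrains the type I interferon receptor and binds STAT2, went from 1.68 to 1.93 up to 10.3 FPKM in both inflamed libraries (2.01, limma adjusted p = 5.43e-07). SOCS1, an inhibitor of JAK kinases, went from 1.74 to 1.79 up to 6.62 to 6.64 FPKM (1.46, limma adjusted p = 9.73e-06). SOCS3, a STAT3 target and an inhibitor of IL-6 family receptors, fell from 17.8 to 20.02 down to 9.91 to 10.4 FPKM (-0.84, limma adjusted p = 4.41e-05). PTPN2, a phosphatase of JAK and STAT proteins, rose by 0.70 (limma adjusted p = 0.00178) and SOCS5 fell by 0.58 (limma adjusted p = 0.00178). SOCS3 was lower still in inflamed hIECs with PM10, at 7.06 to 7.37 FPKM (-0.44 against inflamed hIECs, limma adjusted p = 0.0072).

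The genes listed as targets of ISGF3, the complex that holds STAT2, showed the most uniform directions. ISGF3 itself was not measured, and its part in these values was not tested. All 28 tested of 30 listed were higher in inflamed hIECs, where 25.9% of all genes were, with a median log2 difference of 2.27, and all 28 were higher in inflamed hIECs with PM10 than in normal hIECs with PM10, with a median of 2.09. Some of the 28 were under 1 FPKM in every library without cytokines, namely OAS2, OAS3, XAF1, RSAD2, CMPK2, HERC6, SAMD9 and SAMD9L. MX1 and HERC5 reached at most 1.06 and 1.08 FPKM there. All of these passed the filter only through libraries with cytokines, so the counts and medians were partly fixed by the filter. IFI27, an interferon-induced mitochondrial protein, went from 1.57 to 1.77 up to 303 to 304 FPKM. EPSTI1 went from 2.70 to 2.72 up to 39.8 to 40.1 FPKM, and MX1, an antiviral GTPase, from 0.421 to 0.627 up to 15.3 to 15.9 FPKM. OAS2, an antiviral synthetase, and XAF1 were listed at 0 without cytokines and stood at 12.5 to 13.2 and 22.7 to 31.8 FPKM with them. IRF9, the DNA-binding partner of STAT2, rose from 5.89 to 6.25 up to 11.7 to 12.4 FPKM (0.89, SE 0.219, limma adjusted p = 0.0106), and its libraries of inflamed hIECs with PM10 stood far apart, at 10.9 and 19.6 FPKM. PM10 called 5 of the 28 higher and 1, IFI27, lower in normal hIECs (21.4% against 9.23% of all genes), and 2 higher and 3 lower in inflamed hIECs (17.9%, near the 15.2% of all genes).

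These genes also differed from the STAT genes in the letters upstream of their starts. GAAANNGAAA was present within 250 bases upstream in 17 of the 25 ISGF3 targets with a window (68.0%), against 3.71% of the 27305 genes with a window, in 0 of the 6 STAT genes and in 0 of 33 receptor genes. The list was written from knowledge of interferon-stimulated genes, so its share is no independent finding. Matches of IFI27, EPSTI1 and MX1, the targets first named above that had any, are in capitals. IFI27 held 2, beginning 187 and 174 bases before a start site, while those of EPSTI1 and MX1 began at 50 and 196 bases. The first match of IFI27 and that of MX1 read on the opposite strand.
IFI27, chr14:94110626-94110665, plus strand: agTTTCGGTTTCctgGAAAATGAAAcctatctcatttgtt
EPSTI1, chr13:42992267-42992306, minus strand: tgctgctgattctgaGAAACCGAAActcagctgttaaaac
MX1, chr21:41431839-41431878, plus strand: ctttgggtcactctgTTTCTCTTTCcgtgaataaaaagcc

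**Figure D5:**
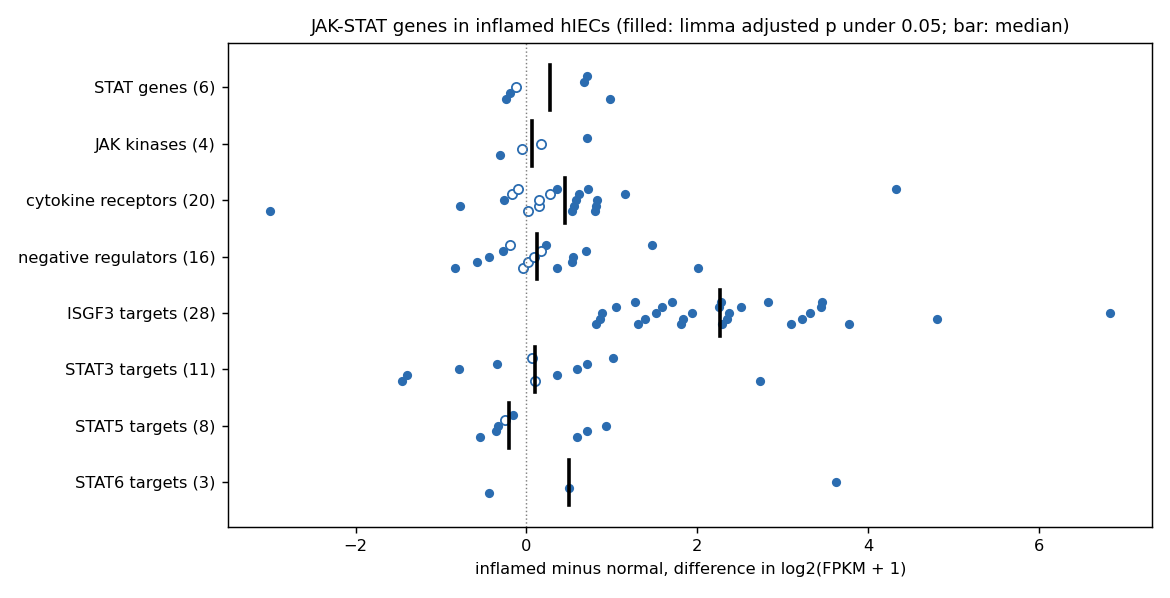
Difference in log2(FPKM + 1) between inflamed and normal hIECs (horizontal axis) for the STAT genes and the 7 pathway lists, with the number tested in parentheses. Points are genes, filled at a limma adjusted p under 0.05, and bars are medians. All 28 ISGF3 targets lay above 0, which was partly fixed by the filter, since some passed it only through libraries with cytokines. The other lists lay on both sides of 0.

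Targets of STAT3, STAT5 and STAT6 moved in both directions in inflamed hIECs. Of 11 STAT3 targets tested, 5 were higher and 4 lower (81.8% called against 56.2% of all genes). SAA1, an acute-phase protein, was listed at 0 without cytokines and stood at 4.86 to 6.59 FPKM in inflamed hIECs and 21.0 to 21.3 FPKM with PM10. CEBPB, a transcription factor of the acute phase, rose by 1.01 (limma adjusted p = 3.29e-05), TIMP1, an inhibitor of metalloproteinases, fell by 0.78 (limma adjusted p = 4.18e-05) and A2M, a protease inhibitor, fell by 1.40 (limma adjusted p = 2.07e-06). SERPINA3, another protease inhibitor of the acute phase, went from 1.63 to 1.85 FPKM to a listed 0. With PM10 added to the cytokines, 7 of the 11 were lower and 2 higher, at a median of -0.34 (81.8% called against 15.2% of all genes, of which 6.22% higher and 9.02% lower), while STAT3 itself differed by -0.01.

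Of 8 STAT5 targets tested in inflamed hIECs, 3 were higher and 4 lower, at a median of -0.20 (87.5% called against 56.2% of all genes). CCND1, a G1 cyclin, rose by 0.93 (limma adjusted p = 7.78e-06), BCL2L1, an inhibitor of apoptosis, by 0.71 (limma adjusted p = 3.96e-05) and CDKN1A, a cell cycle inhibitor, by 0.60 (limma adjusted p = 2.57e-05). BCL6, a transcriptional repressor, fell by 0.54 (limma adjusted p = 0.000376) and ID1, an inhibitor of differentiation factors, by 0.36 (limma adjusted p = 0.00063). Only 3 of 14 STAT6 targets passed the filter, and 9 were at 0 in every library. CCL11 (eotaxin) went from 0.252 to 0.395 up to 14.9 to 15.7 FPKM, POSTN (periostin) from 313 to 346 up to 465 to 467 FPKM, and CISH from 3.83 to 4.95 down to 2.87 to 3.06 FPKM. CISH (-0.44, limma adjusted p = 0.0439) passed in 9 of 17 settings and not without normal replicate 1 or any 1 library with cytokines.

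The genes whose pattern over the 8 libraries was most like that of each STAT gene were found by Pearson's r of log2(FPKM + 1) among 7703 protein-coding genes. The 8 points share 4 treatments, so r mostly reflects differences between groups and is a description. STAT2 was closest to FBXO6 (r = 0.992), RAP2C and PSMC5. STAT3 was closest to CYTH3 (0.991), SPPL3 and EIF2B4, and STAT6 to CRTC2 (0.992), SF3B2 and CLCN7. STAT4 was closest to DCBLD1 (0.995), SETD7 and FADS3, all of which were also highest in inflamed hIECs with PM10, DCBLD1 at 9.16 and 8.40 FPKM against 2.64 and 2.45 FPKM in normal hIECs. STAT5A was closest to CCPG1 (0.992), CCDC82 and PTPN2, and STAT5B to PPRC1 (0.988), SUGP2 and KAT5.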

How the data were processed

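Expression of 8 RNA-seq libraries (4 groups of 2) was taken from the FPKM values the authors deposited, 1 per gene and library. They made poly-A selected libraries without strand information, sequenced 100-base paired reads, trimmed them with Cutadapt 3.7 and Sickle 1.33, aligned them to GRCh38 with HISAT2 2.2.1 and estimated FPKM with StringTie 2.2.0. The annotation release is not given in the sources used here. GENCODE release 44, which holds 99.5% of the gene identifiers, gave positions and overlaps.

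FPKM keeps no counts, so no count test was possible and precision rests on 2 libraries per group. From the deposited FPKM, log2(FPKM + 1) was computed for the 14206 of 60558 genes that reached 1 FPKM in 2 or more libraries. limma 3.58.1 was run in R 4.3.3 on all 8 libraries with 4 group means and the variance modelled as a trend. P-values were adjusted by Benjamini-Hochberg within each of 5 comparisons, at a threshold of 0.05. The fit was tested on simulated data. An exact permutation test of 2 against 2 libraries cannot go below p = 0.333 and was not used. Comparisons that share a group are not independent.

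Alternatives changed the pseudocount to 0.1, the filter (all 21400 genes above 0, or a mean of at least 5 FPKM), the scaling (median centring, quantile normalization, equal totals outside mitochondrial DNA), the variance trend, the libraries fitted and a replicate block. The members and lists were chosen with earlier results of these data known. Named genes were the 6 STAT genes, the JAK kinases, up to 5 called genes per list with the largest difference between inflamed and normal hIECs, the 3 genes most correlated with each STAT gene, and genes with overlapping exons. IRF9, as the partner of STAT2, and cell markers, IL12RB2 and IL2RG were added after their values were seen. Where a group is listed at 0, levels are given in place of a fold change.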

Additional observations from a re-analysis of the deposited data

Results flagged for a closer look

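No STAT gene had a PM10 difference that passed the interaction test between inflamed and normal hIECs, but 13 of the 89 tested genes of the pathway lists did, 3 higher and 10 lower (14.6%, against 6.6% of all genes, by limma with groups of 2). Interaction values are differences of log2(FPKM + 1) differences, inflamed minus normal. SAA1 was listed at 0 in all normal libraries and rose with PM10 in inflamed hIECs, giving 1.73 (SE 0.168, limma adjusted p = 0.00239). It passed the filter only through libraries with cytokines. Normal libraries at 0 could show no fall and added no spread to the SE, so 1.73 is the PM10 difference in inflamed hIECs alone. IL7R fell with PM10 in normal hIECs (-0.61) and rose in inflamed hIECs (0.52), giving 1.13 (SE 0.0929, limma adjusted p = 0.00171). CCND1 rose with PM10 in inflamed hIECs (0.60) and stood at 0.06 in normal hIECs, giving 0.55 (SE 0.0749, limma adjusted p = 0.00925).

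The largest of the 13 was in FOS, an immediate early gene counted among the STAT3 targets, at 16.8 to 23.9 FPKM in normal hIECs with and without PM10, 28.4 to 29.6 FPKM in inflamed hIECs and 4.73 to 4.999 FPKM in inflamed hIECs with PM10, giving -2.68 (SE 0.139, limma adjusted p = 0.000434). Also lower were IFIT1 at -0.70, IFI6 at -0.68, OSMR at -0.61, CEBPD at -0.58, JUNB at -0.44 and MCL1 at -0.32, with limma adjusted p from 0.00619 for IFI6 to 0.0485 for MCL1. FOS and these 6 genes were named after their values were seen. ID1 fell with PM10 in both, by 0.77 in inflamed and 0.31 in normal hIECs, giving -0.46 (SE 0.07, limma adjusted p = 0.0136). TYK2 stood at -0.20 with PM10 in inflamed hIECs, which did not pass, and rose by 0.29 in normal hIECs, giving -0.49 (SE 0.0943, limma adjusted p = 0.0287). EPSTI1 passed in neither alone and gave -0.31 (SE 0.0715, limma adjusted p = 0.0484). SAA1, IL7R, FOS, IFI6 and OSMR passed in every setting run, CCND1 in 16 of 17 (not without inflamed hIECs with PM10 replicate 1), ID1 in 13, TYK2 in 12, JUNB in 9, CEBPD and MCL1 in 7 and EPSTI1 in 6 of 17, and IFIT1 in 10 of 16, with most losses on leaving out 1 library.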

How the results depend on the processing

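Of 494 combinations of a STAT gene's result and an alternative, 441 kept direction and side of the threshold, as did 522 of 537 for the other named genes between inflamed and normal hIECs. There CISH passed in 9 of 17 settings, JAK3 in 15 of 17, not without either inflamed library, and TYK2 in 3 of 18. The higher STAT2, STAT4 and STAT5A of inflamed against normal hIECs held in every setting run, and the lower STAT3 and STAT6 in 17 of 18. The count of STAT genes called for PM10 in normal hIECs (3) was 1 with a pseudocount of 0.1, with all genes above 0 and without the variance trend, 0 in a fit of these 2 groups alone, and 0 to 3 when 1 library was left out. For inflamed against normal hIECs (5) it was 3 with a mean of at least 5 FPKM, which leaves 4 STAT genes to test. For PM10 in inflamed hIECs (1) it was 0 at that filter and 0 to 1 with 1 library left out. The interaction count (0) was 1 at that filter, with median centring and with quantile normalization, and 0 to 1 with 1 library left out. The pathway count for PM10 in normal hIECs (18) was 0 in a fit of the 2 groups and 1 to 28 with 1 library left out. With 1 library left out, the pathway count for PM10 in inflamed hIECs (25) was 12 to 30 and the interaction count (13) was 6 to 17. Values that changed sign were all from results that did not pass. STAT3 for PM10 in inflamed hIECs became 0.0148 with equal totals outside mitochondrial DNA and ran from -0.0591 to 0.0387 with 1 library left out. STAT5A there became 0.0186 with quantile normalization and ran from -0.18 to 0.13 with 1 library left out. Without normal replicate 2 STAT5A became -0.15 for PM10 in normal hIECs (-0.15 to 0.48 with any 1 library left out) and 0.13 for the interaction (-0.50 to 0.13). JAK1 between inflamed and normal hIECs became 0.0588 without normal replicate 1 and ran from -0.17 to 0.0588 with 1 library left out. Where the text names no cause, the cause was not tested. A group left with 1 library was assumed to vary like the others.

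Correlations of the replicate differences ran from -0.002 to 0.079 over the 6 pairs of groups, so no large difference shared by replicate number was seen. They cannot decide whether libraries of the same number shared a culture or batch, which the labels do not state. With the replicate block, 3 STAT genes were called for PM10 in normal hIECs, 5 for inflamed against normal hIECs, 6 with PM10 in both, 1 for PM10 in inflamed hIECs and 0 for the interaction, as without it, and the pathway counts were 15, 70, 79, 23 and 13.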
